A study of Mus musculus with 12 samples.

Results

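RNA levels of 34 genes of cholesterol and fatty acid synthesis were followed across 2 kinds of T helper cell culture and 2 genotypes. The genes are a list by name, taken by Ensembl gene ID and chosen for what their products do, with no expression value in the rule: 5 regulators of the pathway, 7 enzymes of the early mevalonate steps, 11 enzymes from squalene to cholesterol, 3 sterol transport genes, 3 fatty acid synthesis enzymes, and a last group of 5 that holds 4 desaturases and the elongase Elovl6. The list does not hold every enzyme of the pathway. All 34 were counted well enough to be tested, among 12189 tested genes of 39179 gene IDs in the tables.

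The cells were mouse CD4 T cells whose OT-II receptor, a transgene, reads a peptide of ovalbumin. WT cells, the wild type, came from C57BL/6 x OT-II mice, carried Thy1.2 and were sorted as NKG2D+. Knockout cells (KO) came from OT-II x NKG2D-/- mice, carried Thy1.1 and lack NKG2D, an activating receptor encoded by Klrk1. Naive cells of both genotypes from lymph nodes and spleen shared the culture and were stimulated with OVA323-339, a-CD28 antibody and antigen-presenting cells. For Th1 the medium held IL-2, IL-12 and an antibody to IL-4; for Th17 it held IL-1b, IL-6 and IL-23 with antibodies to IFNg and IL-4, and IL-12 was added to them after the second stimulation. Polarization took place on day 0 and day 5 and cells were harvested on day 8. WT and KO cells of Th1 and of Th17 cultures make 4 groups of 3 samples. Genotype, Thy1 allele and the NKG2D+ gate differ together, and their parts in a difference between KO and WT cannot be told apart. The labels give no animal ages and do not say which samples came from separate animals or cultures, so p-values measure only how much these samples vary, and that variation may be technical.

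Cholesterol and fatty acid synthesis are controlled together by the SREBP transcription factors, the products of Srebf1 and Srebf2. These proteins are made as membrane precursors; when sterols are plentiful, the escort protein Scap and the retention proteins Insig1 and Insig2 hold them in the endoplasmic reticulum, and when sterols run low Scap carries them to the Golgi, where they are cut and released to the nucleus. Activated T cells use this programme to build membranes as they grow and divide.

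The promoter sequences below are shown because SREBP-driven genes are known for sterol response elements next to sites for the partner factor NF-Y, whose letters are CCAAT, and because these 4 genes stand for different outcomes in the results: Hmgcs1, which passed no test, Idi1 and Fasn, which were lower in Th17 cultures of both genotypes, and Lss, which was lower in Th17 KO cells than in Th17 WT and in Th1 KO cells. Each stretch is the 150 bases before the RefSeq start (GRCm38.p6), written 5′ to 3′ on the strand of the gene, with matches in capitals: TCACNCCAC for the sterol response element and CCAAT, which reads ATTGG on the other strand.
Hmgcs1, chr13:119690201-119690350, plus strand: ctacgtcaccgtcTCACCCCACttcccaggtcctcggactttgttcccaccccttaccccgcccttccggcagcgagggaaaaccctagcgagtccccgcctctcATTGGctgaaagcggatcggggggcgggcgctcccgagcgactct
Idi1, chr13:8885456-8885605, plus strand: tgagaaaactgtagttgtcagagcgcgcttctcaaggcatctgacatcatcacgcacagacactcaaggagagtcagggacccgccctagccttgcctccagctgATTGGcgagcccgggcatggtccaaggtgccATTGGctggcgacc
Fasn, chr11:120824548-120824697, minus strand: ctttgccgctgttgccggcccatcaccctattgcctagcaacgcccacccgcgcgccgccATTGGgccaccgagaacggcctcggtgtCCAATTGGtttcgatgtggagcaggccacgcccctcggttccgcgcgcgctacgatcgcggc
Lss, chr10:76531455-76531604, plus strand: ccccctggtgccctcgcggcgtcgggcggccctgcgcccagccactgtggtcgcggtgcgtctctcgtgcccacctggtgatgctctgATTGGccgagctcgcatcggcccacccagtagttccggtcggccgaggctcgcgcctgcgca
In Hmgcs1 the first base of TCACCCCAC lay at position -137 from the start and that of ATTGG at -45; Fasn held ATTGG at -90 and overlapping matches on both strands at -62 and -59. Windows from 250 bases before to 50 bases after the start were given for 26 of the 34 genes and for 27025 genes in all. On either strand, CCAAT was present in 20 of the 26 (76.9%) and in 41.1% of all genes. TCACNCCAC was present in Hmgcs1 alone of the 26 (3.85%), against 1.44% of all genes. CACGTG, the E-box that SREBP-1 can also bind, was present in 6 of the 26 (23.1%), namely Abca1, Dhcr7, Hsd17b7, Insig1, Sc5d and Scap, against 8.09% of all genes. A match is a description of letters in this window, not a measured binding site, and genes outside these matches may hold other forms of the element. The GENCODE annotation starts Idi1 at chr13:8885501 and Lss at chr10:76531588, inside the stretches printed for them. Both marked matches of Idi1 lie past that start. The bases just after the RefSeq start were found in GENCODE transcripts of Idi1 and Fasn but not of Hmgcs1 and Lss.

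The 12 libraries held 1647232 to 12688637 counts. Th17 WT 2, Th17 WT 3 and Th17 KO 2 were shallow (1647232 to 2731909 counts) and gave 18.3% to 51.0% of their counts to one gene ID, which held at most 0.00831% in the other 9. A floor of 3 counts corresponds to 0.208 to 0.284 CPM (the count scaled to library size by TMM) in the 9 deep libraries and to 1.19 to 3.15 CPM in the shallow ones, where the 34 genes together still gave at least 4262 counts. Klrk1 stood at 128 to 161 CPM in Th1 WT and 130 to 141 CPM in Th17 WT, against 3.31 to 5.63 and 1.60 to 3.35 CPM in the KO groups. The 7 T cell identity markers summed to 8894 to 10500 CPM over all libraries, and Ifng was lower in Th17 than in Th1 libraries of both genotypes. Of 11 markers of antigen-presenting and B cells 2 were counted well enough to be tested, and their summed level ran from 4.02 to 8.40 CPM; the 5 CD8 and NK cell markers summed to 1.04 to 6.61 CPM, with Ncr1 at 0 in every library. In bulk RNA, fewer cells of a type and less RNA per cell cannot be told apart.

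Per kilobase of exon, the pathway was led by Scd2, a stearoyl-CoA desaturase that makes monounsaturated fatty acids, at 219 ± 13.1 CPM per kb (SD, n = 3) in Th1 WT. Next there came Acly at 64.2 and Fasn at 60.8 CPM per kb, the enzymes that make cytosolic acetyl-CoA and build the fatty acid chain, then Fdps at 51.2, Cyp51 at 50.5 and Insig1 at 49.96. The lowest were Dhcr7 at 2.93, Insig2 at 2.40 and Tm7sf2 at 1.62 CPM per kb. Scd2 was first and Tm7sf2 last in all 4 groups, while the order between them shifted with the culture. Fasn stood at rank 3 in Th1 WT and 2 in Th1 KO but at 6 in Th17 WT and 7 in Th17 KO. Acat2 went from rank 10 and 9 in the Th1 groups to 17 in both Th17 groups, and Scd1 from 12 and 11 to 5 in both. Neighbouring ranks often differ by less than the SD, as the plot of length-scaled levels shows. The summed level of the 34 genes ran from 4978 to 5134 CPM in WT and 5014 to 5336 in KO for Th1, and from 4614 to 4953 in WT and 4477 to 4783 in KO for Th17, so the ranges of the Th17 groups lay below those of the Th1 groups.

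**Figure D1:**
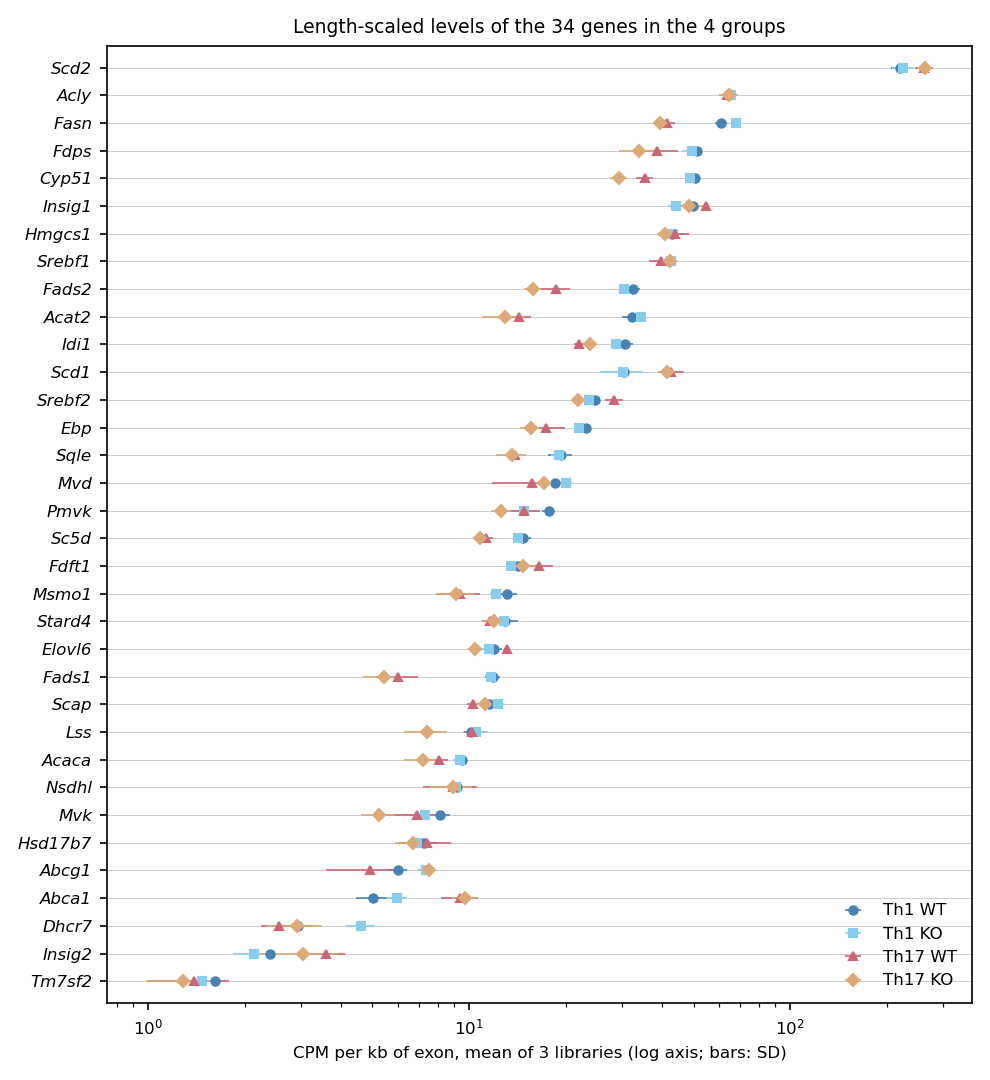
Length-scaled level of each gene (CPM per kb of exon, log axis) in the 4 groups; points are means of 3 libraries and bars are SD. Scd2 leads at 219 CPM per kb in Th1 WT and Tm7sf2 is lowest at 1.62.

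Between the cultures, more of these genes were lower than higher in Th17 cells. In WT cells 13 fell and 6 rose in Th17 compared with Th1, and in KO cells 16 fell and 5 rose (edgeR's quasi-likelihood test, adjusted p below 0.05 over all tested genes). The falls ran from 1.20-fold to 2.15-fold in WT and from 1.14-fold to 2.49-fold in KO, and the largest were in Acat2, Fads1, Fads2, Fasn and Cyp51. The rises reached 1.79-fold in WT and 1.67-fold in KO, both in Abca1. Over all 12189 genes, 47.1% differed between the cultures in WT and 53.6% in KO, so the shares of these genes that differed, 55.9% and 61.8%, were near the background. By direction, 38.2% of the genes fell and 17.6% rose in WT, where 23.6% and 23.5% of all genes did; in KO the shares were 47.1% lower and 14.7% higher, against 26.7% and 26.9% of all genes. The median log2 difference of the 34 genes was -0.13 in WT and -0.20 in KO, and that of all genes -0.008 and 0.001.

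Of the 34 genes, 12 fell in both genotypes: Acat2, Fads2, Fads1, Fasn, Cyp51, Idi1, Sqle, Ebp, Sc5d, Msmo1, Fdps and Acaca. Another 4 rose in both, Abca1, Scd1, Scd2 and Insig2, and no gene passed in opposite directions. The test was passed in WT alone by Srebf2, Fdft1 and Pmvk, in KO alone by Scap, Mvk, Insig1, Dhcr7 and Lss, and in neither by 10 genes. In the main edgeR fit none of the 34 passed the test of the difference between these differences (the interaction, described below). Passing in 1 genotype thus does not show that the genotypes differ. The ranges of the Th1 and Th17 libraries did not overlap for 20 genes in WT and 21 in KO, where 52.1% and 55.7% of all genes were so separated.

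**Figure D2:**
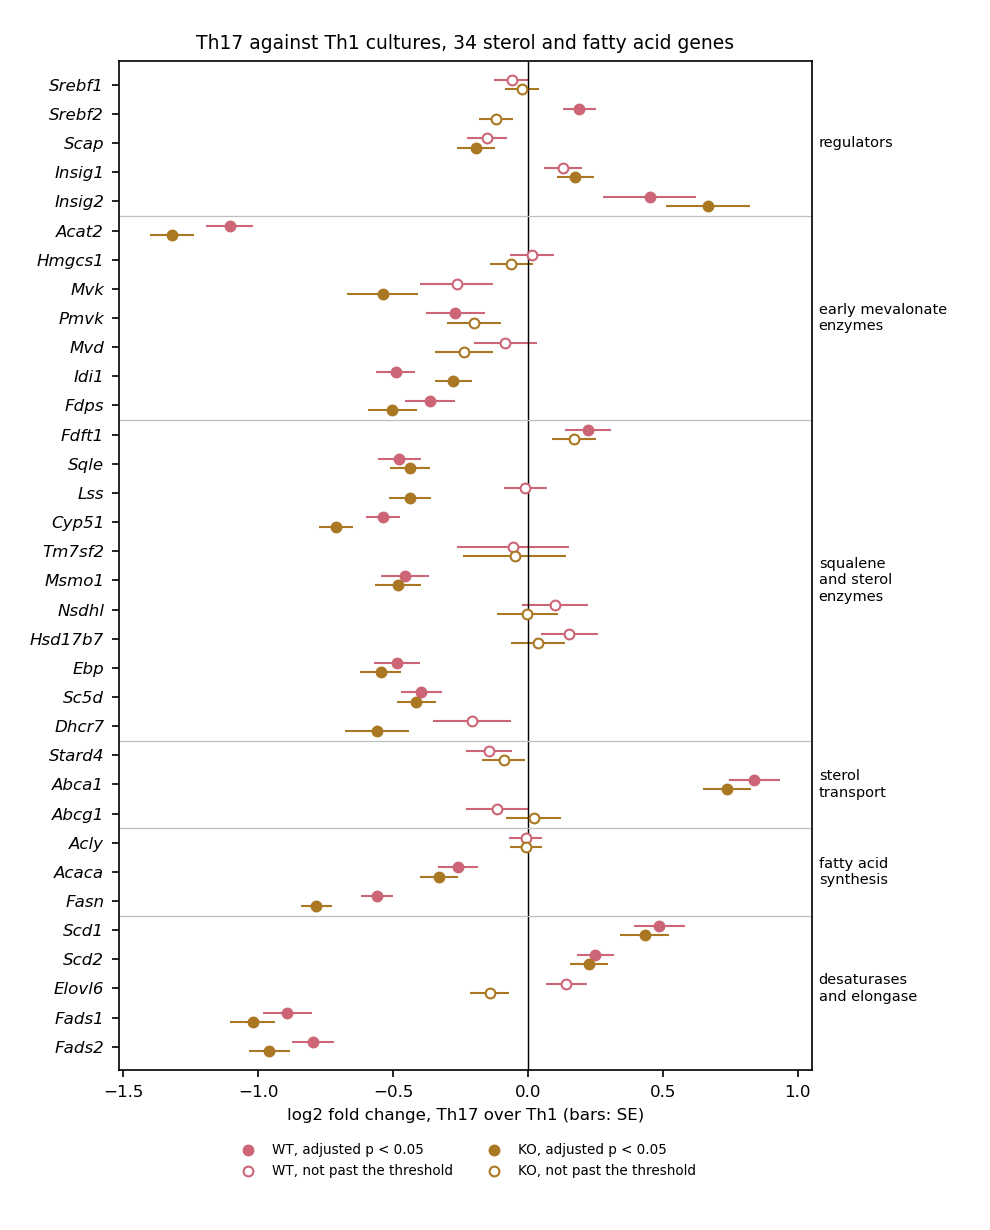
Log2 fold change of Th17 over Th1 for each gene in WT and in KO; filled points passed adjusted p 0.05 and bars are SE. Acat2 lies furthest to the left at -1.11 in WT and -1.32 in KO, and Abca1 furthest to the right at 0.84 and 0.74.

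Among the regulators, the larger difference of the transcription factor genes between the cultures was 0.19 on the log2 scale, in Srebf2. Srebf1 (chr11:60199089-60222581), whose main product in many cells favours fatty acid genes, stood at 248, 233 and 226 CPM in Th1 WT, 249, 242 and 231 in Th1 KO, 244, 217 and 209 in Th17 WT and 233, 248 and 235 in Th17 KO. All 4 groups overlapped, and the 95% interval of its log2 difference between cultures was -0.19 to 0.08 in WT and -0.15 to 0.11 in KO. Srebf2 (chr15:82147181-82205379), which favours cholesterol genes, stood at 181, 176 and 173 CPM in Th1 WT, 172, 165 and 172 in Th1 KO, 189, 215 and 206 in Th17 WT and 153, 161 and 157 in Th17 KO. It was thus highest in every Th17 WT library and lowest in every Th17 KO library. It rose in Th17 WT by 0.19 ± 0.06 (log2, SE; adjusted p = 0.0134), a call that was lost without Th1 WT 3 (adjusted p = 0.0567), Th17 WT 2 (0.115) or the 3 shallow libraries (0.241) and with no filter on low counts (0.108), and in KO its difference was -0.12 (adjusted p = 0.111).

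Insig1, itself an SREBP target that closes the feedback loop, stood at 155, 156 and 153 CPM in Th1 WT, 143, 139 and 128 in Th1 KO, 168, 172 and 165 in Th17 WT and 158, 129 and 162 in Th17 KO. In Th17 KO the shallow library was the low one. The difference between cultures was 0.13 in WT (adjusted p = 0.133) and 0.18 in KO (adjusted p = 0.0314). Insig2, its paralog, rose by 0.45 in WT (adjusted p = 0.0337) and by 0.67 in KO (adjusted p = 7.74e-04). In KO its ranges overlapped. The shallow Th17 KO 2 held 7.35 CPM, from 7 counts, where Th1 KO held 6.32 to 8.48. Scap, which shares 8.26% of its read-length transcript stretches with another gene, fell in KO by 0.19 on the log2 scale (adjusted p = 0.0228). These calls at small differences rested on single libraries: Insig1 lost its call in KO without 1 of 5 libraries (Th1 WT 2, Th1 KO 2, Th1 KO 3, Th17 KO 1 or Th17 KO 3; adjusted p 0.0505 to 0.199), Scap without 1 of 4 (Th1 KO 1, Th1 KO 2, Th17 KO 1 or Th17 KO 3; 0.0555 to 0.131), and Insig2 in WT without 1 of 5 (any Th1 WT library, Th17 WT 2 or Th17 WT 3; 0.057 to 0.129).

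Of the 7 early mevalonate enzymes, 4 fell in Th17 WT and 4 in Th17 KO, and none rose. Acat2 (chr17:12942890-12960747), the cytosolic thiolase that joins acetyl-CoA units at the entry to the pathway, stood at 75.7, 83.4 and 86.1 CPM in Th1 WT and at 40.2, 34.01 and 35.3 in Th17 WT. In KO it stood at 83.7, 88.5 and 88.9 CPM in Th1 and at 36.9, 27.3 and 34.3 in Th17. Every Th17 library was below every Th1 library, and the log2 differences were -1.11 ± 0.09 in WT (adjusted p = 1.27e-10) and -1.32 ± 0.08 in KO (adjusted p = 5.91e-13). In its annotated transcripts 33.9% of stretches as long as a read occur also in Acat3 or Tcp1, so its counts are uncertain to the extent that shared reads were kept; Acat3 itself held 0 to 5 counts a library and Tcp1 did not pass the test in either genotype.

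Idi1, the isomerase that makes the reactive isoprenoid unit, stood at 99.8, 108 and 114 CPM in Th1 WT and 73.7, 79.1 and 78.9 in Th17 WT. In KO it stood at 99.8, 98.1 and 105 CPM in Th1 and 85.7, 83.0 and 80.8 in Th17. The ranges were apart in both genotypes, with log2 differences of -0.49 ± 0.07 in WT (adjusted p = 3.63e-06) and -0.28 ± 0.07 in KO (adjusted p = 0.00121). Fdps, the farnesyl diphosphate synthase, fell by 0.36 in WT (adjusted p = 0.00355; -0.16 and adjusted p = 0.0962 without the 3 shallow libraries) and by 0.50 in KO (adjusted p = 1.46e-04). Of the read-length stretches of these genes, 23.6% for Idi1 and 23.5% for Fdps occur also in pseudogenes or overlapping genes. Hmgcs1, which makes HMG-CoA and is a classical SREBP target, stood at 187, 187 and 215 CPM in Th1 WT and 196, 184 and 225 in Th17 WT. Its 95% intervals were -0.15 to 0.18 in WT and -0.22 to 0.10 in KO, so a fall as large as that of Idi1 in WT lay outside both. Of the read-length stretches of Hmgcs1, 9.79% occur also in Gm48342 or Rasgrp2. Rasgrp2 itself had Th17 over Th1 differences of -2.07 in WT (adjusted p = 7.13e-10) and -3.37 in KO (adjusted p = 8.87e-14). The part of shared reads in the Hmgcs1 counts was not tested. Mvk, the mevalonate kinase, fell in KO by 0.54 (adjusted p = 0.00103) and had a difference of -0.26 in WT (adjusted p = 0.116). Pmvk, the next kinase, passed in WT alone (-0.27, adjusted p = 0.0437) and no longer did without Th1 WT 2 (adjusted p = 0.103), Th1 WT 3 (0.0888), Th17 WT 1 (0.435) or Th17 WT 3 (0.0687). Mvd, the decarboxylase, did not pass in either genotype. In WT, Th17 WT 1 held 37.3 CPM against 23.3 and 27.0 in the shallow Th17 WT libraries. Without Th17 WT 1 the WT difference was -0.50 (adjusted p = 0.0128). In KO the difference was -0.24 (adjusted p = 0.0662), with ranges apart. The KO difference passed with no filter on low counts (0.0228) and with only the groups compared (0.0392). It passed also without Th17 WT 1 (0.0227), Th17 WT 2 (0.0315) or Th17 KO 1 (0.0407).

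Of the 11 enzymes from squalene to cholesterol, 5 fell and 1 rose in Th17 WT, and 7 fell in Th17 KO. Cyp51 (chr5:4081145-4104746), the lanosterol demethylase, stood at 217, 224 and 228 CPM in Th1 WT and 145, 159 and 163 in Th17 WT. In KO it stood at 220, 212 and 213 CPM in Th1 and 134, 120 and 134 in Th17. Its Th17 libraries were all below its Th1 libraries, with log2 differences of -0.54 ± 0.06 in WT (adjusted p = 1.38e-07) and -0.71 ± 0.06 in KO (adjusted p = 5.19e-10). Sqle, the squalene epoxidase and a rate-controlling step, stood at 99.9, 104 and 117 CPM in Th1 WT and 78.0, 74.0 and 78.9 in Th17 WT, a fall of 0.48 ± 0.08 (adjusted p = 2.13e-05), and it fell by 0.44 ± 0.08 in KO (adjusted p = 2.32e-05).

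Ebp, a sterol isomerase, stood in KO at 49.6, 52.1 and 51.1 CPM in Th1 and 35.5, 38.9 and 33.6 in Th17 (-0.55 ± 0.08, adjusted p = 1.52e-06). Sc5d, a desaturase late in the pathway, stood in KO at 68.0, 72.3 and 67.5 CPM in Th1 and 50.4, 54.6 and 53.2 in Th17 (-0.41 ± 0.07, adjusted p = 2.22e-05). Both fell in WT as well (Sc5d by 0.40, adjusted p = 1.2e-04), as did Msmo1, the sterol methyl oxidase (-0.45 in WT, adjusted p = 1.53e-04; -0.48 in KO, adjusted p = 2.92e-05). Dhcr7, which carries out the closing reduction to cholesterol, fell in KO by 0.56 ± 0.12 (adjusted p = 2.87e-04) from a Th1 KO level that was itself raised, and had a difference of -0.21 in WT (adjusted p = 0.253). Fdft1, the squalene synthase, was the exception: it rose in WT by 0.22 (adjusted p = 0.034), with overlapping ranges. That call was lost without Th1 WT 1 (adjusted p = 0.0585), Th1 WT 2 (0.177), Th17 WT 1 (0.408) or Th17 WT 3 (0.0765), and 21.8% of the read-length stretches of Fdft1 occur also in other genes, mainly Ctsb on the opposite strand. Tm7sf2, Nsdhl and Hsd17b7, which act between lanosterol and the late sterols, passed in neither genotype. For Tm7sf2, 8.83% of the read-length stretches occur also in Vps51.

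Of the 3 sterol transport genes, the exporter Abca1 (chr4:53030787-53159895) rose in both genotypes. It stood at 58.3, 46.5 and 51.1 CPM in Th1 WT and 85.8, 95.3 and 111 in Th17 WT. In KO it stood at 66.8, 61.2 and 57.5 CPM in Th1 and 99.6, 92.4 and 110 in Th17. Every Th17 library was above every Th1 library, with log2 differences of 0.84 ± 0.10 in WT (adjusted p = 1.67e-07) and 0.74 ± 0.09 in KO (adjusted p = 2.59e-07). Abcg1, the companion exporter, and Stard4, a sterol carrier, did not pass in either genotype. For Abcg1 in WT that rested on 1 library: without Th17 WT 1 its difference was -0.56 (adjusted p = 0.00189). Both remaining Th17 WT libraries are shallow; the part of depth in this difference was not tested.

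The fatty acid enzymes divided by step. Acly, the citrate lyase that supplies acetyl-CoA, had differences of -0.01 in both genotypes, with 95% intervals of -0.13 to 0.12. Acaca, which makes malonyl-CoA, fell by 0.26 in WT (adjusted p = 0.00542; 0.101 without Th17 WT 1) and by 0.33 in KO (adjusted p = 3.54e-04); 26.8% of its read-length stretches occur also in other genes. Fasn (chr11:120805846-120824547), the synthase, stood at 638, 664 and 696 CPM in Th1 WT and 444, 437 and 482 in Th17 WT. In KO it stood at 733, 734 and 761 CPM in Th1 and 428, 433 and 434 in Th17. Its ranges did not overlap in either genotype, with falls of 0.56 ± 0.06 in WT (adjusted p = 2e-08) and 0.78 ± 0.06 in KO (adjusted p = 2.79e-11).

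The 4 desaturases changed in opposite directions, 2 down and 2 up. Fads1 (chr19:10182888-10196877) and Fads2 (chr19:10062765-10101746), neighbouring genes whose products desaturate polyunsaturated fatty acids, both fell. Fads1 stood at 54.0, 57.3 and 60.1 CPM in Th1 WT and 31.9, 30.9 and 23.9 in Th17 WT, and at 56.6, 57.7 and 54.2 in Th1 KO and 28.7, 22.1 and 27.6 in Th17 KO. Fads2 stood at 102, 106 and 113 CPM in Th1 WT and 64.0, 54.2 and 66.5 in Th17 WT, and at 102, 103 and 95.6 in Th1 KO and 48.4, 53.6 and 54.3 in Th17 KO. No Th17 library reached the Th1 range of either gene. Fads1 fell by 0.89 ± 0.09 in WT (adjusted p = 1.07e-08) and by 1.02 ± 0.08 in KO (adjusted p = 1.34e-10), and Fads2 by 0.80 ± 0.08 (adjusted p = 6.95e-09) and 0.96 ± 0.08 (adjusted p = 6.87e-11). Scd1 (chr19:44394455-44407879) and Scd2 (chr19:44293674-44306864), which desaturate saturated chains to oleate and palmitoleate, both rose. Scd1 went from 156, 148 and 143 CPM in Th1 WT to 220, 186 and 220 in Th17 WT (0.49 ± 0.09, adjusted p = 3.12e-04) and rose by 0.43 ± 0.09 in KO (adjusted p = 6.44e-04). Scd2 went from 1280, 1145 and 1171 CPM in Th1 WT to 1506, 1325 and 1445 in Th17 WT (0.25 ± 0.07, adjusted p = 0.00406) and rose by 0.23 ± 0.07 in KO (adjusted p = 0.0073), where the call was lost without Th1 KO 3 (adjusted p = 0.0602) or Th17 KO 1 (0.0513). Elovl6, which elongates saturated and monounsaturated chains, had differences of 0.14 in WT (adjusted p = 0.123) and -0.14 in KO (adjusted p = 0.104).

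**Figure D3:**
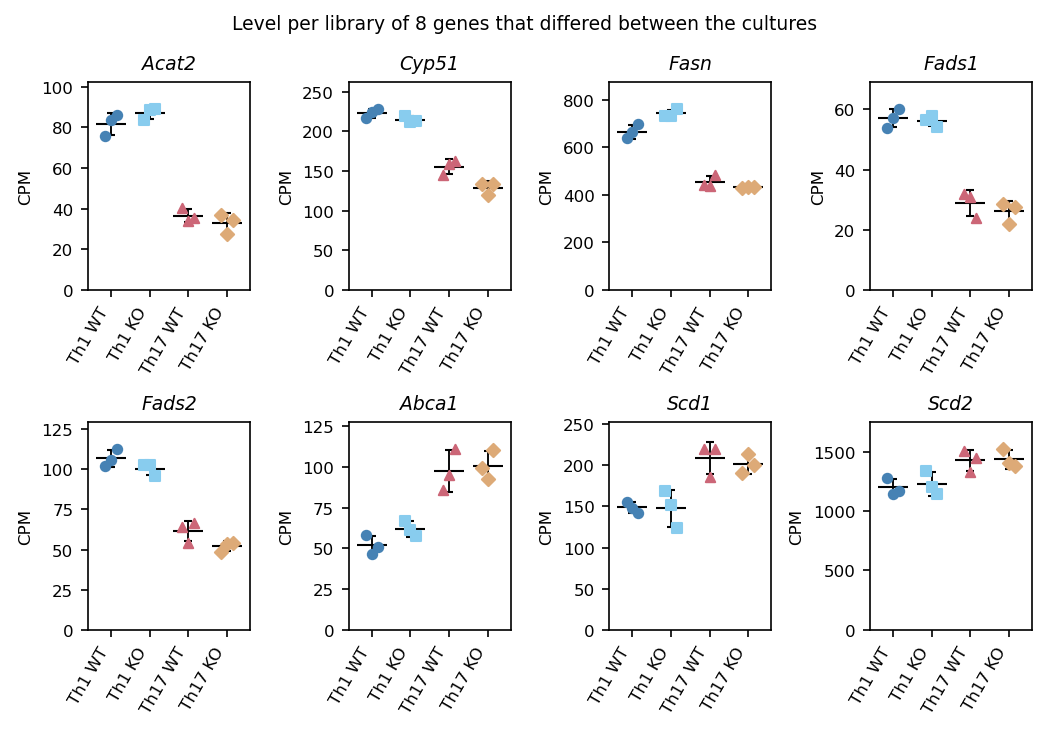
Level (CPM, linear axis from 0) of 8 genes in each of the 12 libraries by group; horizontal marks are group means and error bars are SD (n = 3). Acat2, Cyp51, Fasn, Fads1 and Fads2 are lower, and Abca1, Scd1 and Scd2 higher, in the Th17 groups.

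The 10 proliferation genes counted beside these (Mki67, Top2a, Ccnb1, Cdk1, Mcm5, Pcna, Tyms, Rrm2, Bub1 and Aurkb) were all lower in Th17 than in Th1 libraries, with a median log2 difference of -0.62 in WT and -0.72 in KO. Their summed level ran from 5293 to 5596 CPM in WT and 4801 to 4974 in KO for Th1, and from 3415 to 3767 in WT and 2923 to 3162 in KO for Th17. The part of this difference in that of the sterol and fatty acid genes was not tested.

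Between the genotypes far fewer of these genes differed. In Th1 cultures 1 of the 34 passed the test, Dhcr7, which was higher in KO, where 4.61% of all genes passed, 1.69% higher and 2.92% lower; the genes' own share was 2.94%. The median log2 difference of KO from WT was -0.02, beside -0.002 for all genes. Dhcr7 (chr7:143823145-143848410) stood at 14.8, 18.5 and 17.8 CPM in Th1 WT and 29.1, 27.7 and 23.8 in Th1 KO. The ranges did not overlap, and the rise was 0.66 ± 0.11 (log2, SE), or 1.58-fold, with adjusted p = 3.17e-04. It passed under each of the 19 alternatives tried. In Th17 cultures Dhcr7 stood at 15.1, 13.1 and 16.6 CPM in WT and 20.3, 13.7 and 16.7 in KO, overlapping ranges with a difference of 0.30 (adjusted p = 0.312). The 13.7 CPM of the shallow Th17 KO 2 rested on 13 counts. The interaction of Dhcr7 was -0.35 ± 0.19 (adjusted p = 0.57), so its genotype difference was not shown to differ between the cultures. Within 1 Mb of Dhcr7, a window chosen after its values were seen, 14 other genes were tested. Of these, 6 differed between the genotypes in Th1, Cars and Tnfrsf22 higher in KO and Tspan32, Tnfrsf26, Tnfrsf23 and Mrgpre lower, and the 4 lower ones were lower in Th17 KO too. The part of the gene's position in its difference was not tested.

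Of the other 33 genes in Th1, the nearest to the threshold were Abcg1 (0.29, adjusted p = 0.096), Abca1 (0.25, adjusted p = 0.116), Pmvk (-0.25, adjusted p = 0.118), Insig1 (-0.18, adjusted p = 0.131) and Fasn (0.16, adjusted p = 0.132). Abcg1 stood at 45.6, 40.3 and 45.2 CPM in Th1 WT and 57.2, 50.7 and 52.9 in Th1 KO, so its ranges were apart. It passed without Th17 WT 1 (adjusted p = 0.0109), Th17 WT 2 (0.0292) or the 3 shallow libraries (0.0122), with no filter on low counts (0.00703) and with only the groups compared (0.00873). Abca1 passed without Th1 WT 1 (0.0347) and with no filter (0.0302), Insig1 with only the groups compared (0.0397), and Fasn with only the groups compared (0.0272) or without the shallow libraries (0.0477). A further edgeR fit held a block that grouped WT and KO samples of a culture by order of library code. There Abcg1 (adjusted p = 0.00153), Abca1 (0.00635), Fasn (0.0227), Pmvk (0.0241) and Insig1 (0.0272) passed. With that block 1315 of all genes passed in Th1, against 562 without it, and the codes do not establish a pairing. The ranges of KO and WT were apart for 7 of the 34 genes, where 24.5% of all genes were so separated. Srebf2, Insig1, Pmvk and Ebp were lower and Dhcr7, Abcg1 and Fasn higher in KO.

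**Figure D4:**
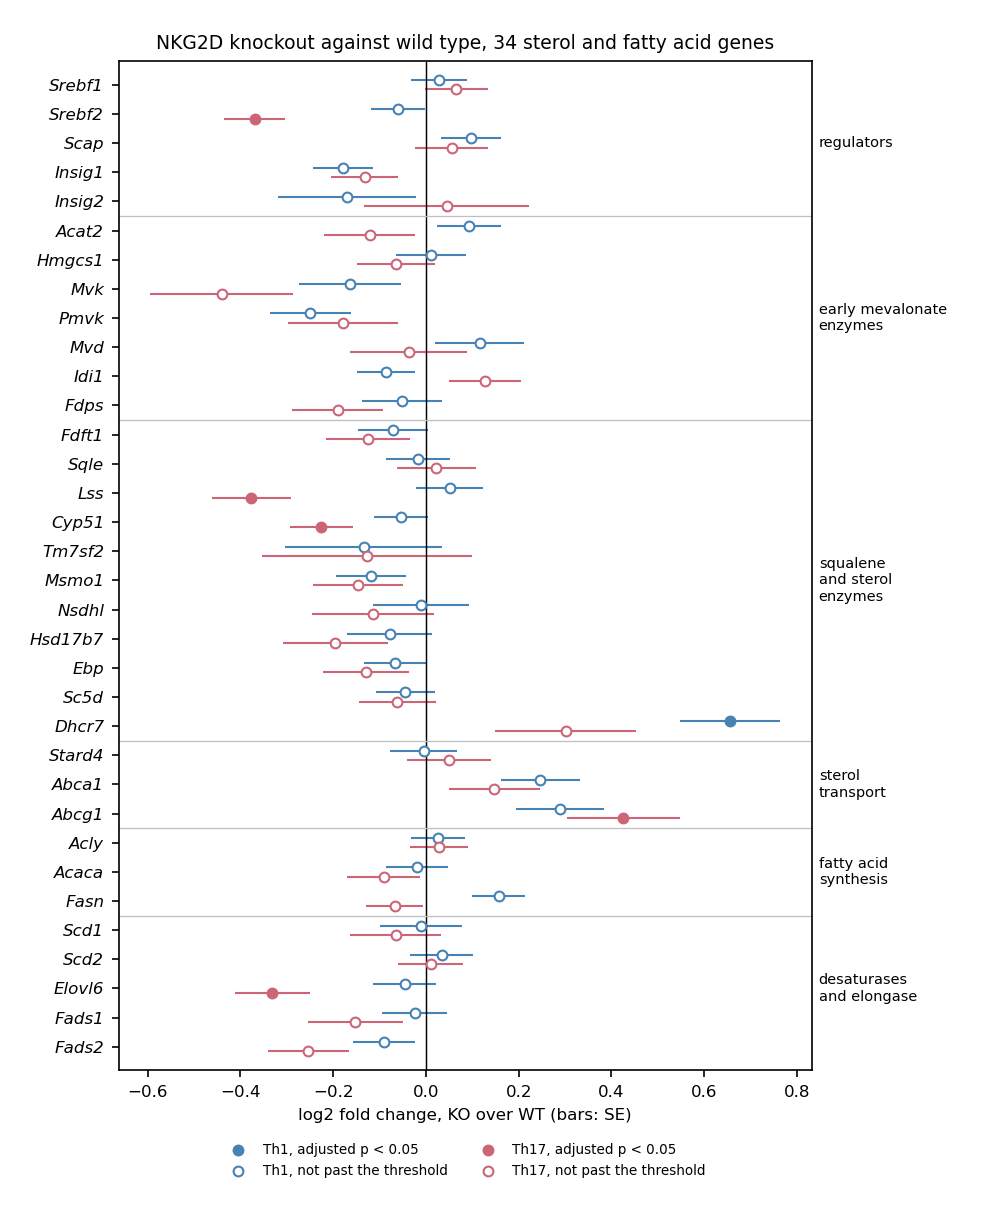
Log2 fold change of KO over WT for each gene in Th1 and in Th17; filled points passed adjusted p 0.05 and bars are SE. Dhcr7 stands out in Th1 at 0.66, and in Th17 the filled points are Srebf2, Lss, Elovl6, Cyp51 and Abcg1.

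In Th17 cultures 5 of the 34 genes passed, 14.7% against 5.83% of all genes. Srebf2, Lss, Elovl6 and Cyp51 were lower in KO, where 4.02% of all genes were lower, and Abcg1 was higher, where 1.81% were. The median log2 difference of the 34 genes was -0.10, beside 0.002 for all genes. The decreases were 1.17-fold to 1.30-fold. In the CPM printed for Srebf2 above, the 3 Th17 KO libraries lay between 153 and 161 and the 3 Th17 WT libraries between 189 and 215, and the fall of 0.37 ± 0.07 (adjusted p = 6.85e-04) passed under every one of 19 alternatives, with adjusted p = 0.0291 without the 3 shallow libraries.

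Lss (chr10:76531588-76557138), the cyclase that folds oxidosqualene into lanosterol, stood at 108, 106 and 116 CPM in Th17 WT and 89.2, 66.2 and 84.1 in Th17 KO. Its Th1 levels were 107, 108 and 114 CPM in WT and 122, 102 and 117 in KO, so the Th17 KO libraries were the low ones of the 12. The fall in Th17 KO was 0.38 ± 0.09 (adjusted p = 0.00788), and without the 3 shallow libraries it was 0.32 (adjusted p = 0.0688). Elovl6 (chr3:129532355-129638495) stood at 86.3, 83.5 and 83.1 CPM in Th17 WT and 70.3, 65.1 and 65.3 in Th17 KO, a fall of 0.33 ± 0.08 (adjusted p = 0.0132) with ranges apart. It no longer passed without Th17 WT 1 (adjusted p = 0.0979), Th17 KO 3 (0.0819) or the shallow libraries (0.054).

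Cyp51 stood in Th17 at the levels given above, 145 to 163 CPM in WT and 120 to 134 in KO, a fall near the threshold (-0.23 ± 0.07, adjusted p = 0.0477). That call held under 3 of 19 alternatives; it was lost when any single library but Th17 WT 1 was left out (adjusted p 0.0592 to 0.191) and with DESeq2 (0.122). Abcg1 (chr17:31057675-31117988) stood at 46.9, 29.3 and 31.2 CPM in Th17 WT and 54.7, 55.7 and 53.6 in Th17 KO. The low WT libraries were the 2 shallow ones, and the rise of 0.43 ± 0.12 (adjusted p = 0.0429) was 0.20 (adjusted p = 0.4) without the shallow libraries. It was lost also without any 1 of 8 libraries (Th1 WT 1, Th1 WT 3, Th1 KO 3, Th17 WT 2, Th17 WT 3 or any Th17 KO library; adjusted p 0.0533 to 0.167).

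With the 3 shallow libraries left out, Th17 WT is 1 library and its spread is assumed equal to that of the other groups; then 2 of the 34 genes passed in Th17, Srebf2 and Fdps (adjusted p = 0.0265, lower in KO), so of the 5 calls 1 remained. Of the 29 genes that did not pass, Fads2 (-0.25, adjusted p = 0.0946, and 0.0484 without Th17 WT 2) and Mvk (-0.44, adjusted p = 0.1) were nearest the threshold. In the edgeR fit with the block by library code, Mvk (adjusted p = 0.0121), Fads2 (0.0177) and Fdps (0.0432) passed. There 1117 of all genes passed in Th17, against 711 in the main fit, and the codes do not establish a pairing. The ranges of KO and WT were apart for 8 of the 34 genes, where 18.5% of all genes were so separated. Between the genotypes 3 of the 10 proliferation genes passed as lower in KO in Th1 and 3 in Th17, where 2.92% and 4.02% of all genes did. Their log2 difference was below 0 for 9 of the 10 in Th1 and for 10 in Th17, with medians of -0.16 and -0.20. The part of this in the differences above was not tested.

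**Figure D5:**
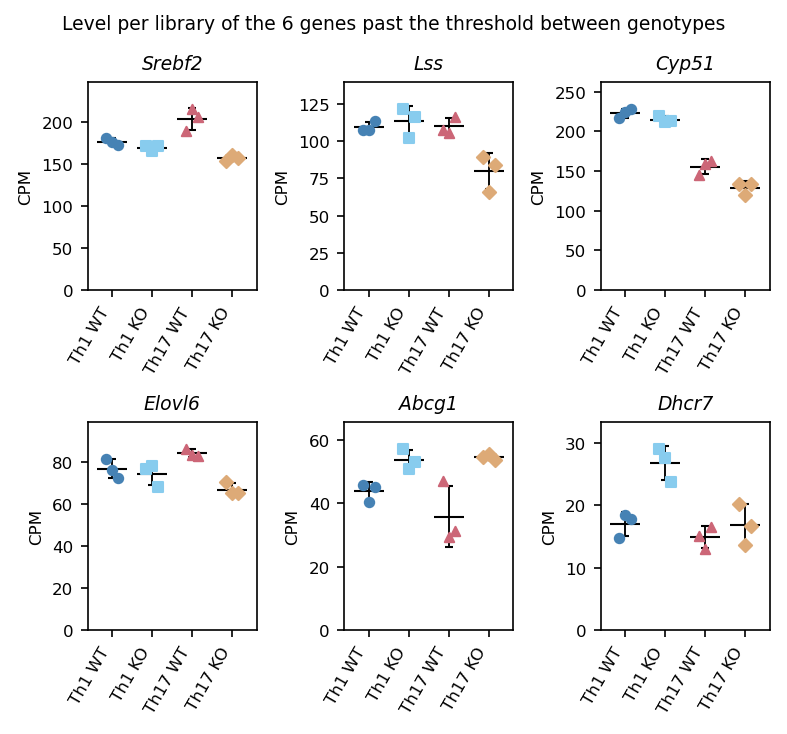
Level (CPM, linear axis from 0) in each of the 12 libraries, by group, of the 6 genes that passed between genotypes; horizontal marks are group means and error bars are SD (n = 3). Srebf2 sits at 153 to 161 CPM in Th17 KO and at 189 to 215 in Th17 WT, and Dhcr7 is above its other groups in Th1 KO.

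Whether the genotype difference itself differed between the cultures was tested directly, as the KO minus WT difference in Th17 less that in Th1. None of the 34 genes passed in the main edgeR fit of all 12 samples or with DESeq2. In that edgeR fit 0.591% of all genes passed. An unadjusted p below 0.05 was held by 5 of the 34 and by 1189 of all 12189 genes. The nearest was Lss, with a difference of -0.43 ± 0.11 (adjusted p = 0.0826): in the CPM given above KO and WT overlapped in Th1 and were apart in Th17. It passed without Th17 KO 1 (adjusted p = 0.0436) and with no filter on low counts (0.022). Srebf2 followed at -0.31 ± 0.09 (adjusted p = 0.113), then Elovl6 (adjusted p = 0.295) and Fasn at -0.22 (adjusted p = 0.305). In the edgeR fit with the block by library code, Lss (adjusted p = 0.00427) and Srebf2 (0.0303) passed. There 329 of all genes passed, against 72 in the main fit, and the codes do not establish a pairing. The interaction was below 0 for 24 of the 34 genes and for 6012 of all 12189, with a median of -0.07 beside 0.003 for all genes.

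Other genes of the same pathways, from lists drawn up by function, were tested in the same way. Of 20 other sterol genes 17 were tested; 4 rose and 2 fell in Th17 WT, and 4 rose and 4 fell in Th17 KO. These are 35.3% and 47.1% of the 17, against 47.1% and 53.6% of all genes. The rises included Erlin1, a regulator in the endoplasmic reticulum membrane (0.74 in WT, adjusted p = 6.87e-04; 0.57 in KO, adjusted p = 0.00198). The falls included Tmem97, a sterol-responsive membrane protein (-0.61 and -0.60), and Mylip, a ubiquitin ligase that removes lipoprotein receptors (-0.83 and -0.98). Between the genotypes Npc2, the lysosomal cholesterol carrier, was lower in Th1 KO (-0.32, adjusted p = 0.0399). None of the 17 passed in Th17, where 2 had an unadjusted p below 0.05, beside 2095 of all 12189 genes.

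Of 30 other fatty acid genes 26 were tested; 10 fell and 4 rose in Th17 WT, and 12 fell and 4 rose in Th17 KO. These are 53.8% and 61.5% of the 26, near the 47.1% and 53.6% of all genes. Agpat3, an acyltransferase of phospholipid synthesis, had the smallest p (-1.02 in WT, adjusted p = 1.83e-11; -1.14 in KO, adjusted p = 7.09e-13), followed by Elovl5, which elongates polyunsaturated chains next to Fads1 and Fads2 (-0.67 and -0.86). Lpin2, a phosphatidate phosphatase (-0.87 and -0.78), and Mid1ip1, an activator of acetyl-CoA carboxylase (-0.76 and -0.95), fell in both genotypes. Dgat1, which forms triglyceride, rose (0.79 in WT and 1.08 in KO). Between the genotypes none of the 26 passed in Th1 in the main edgeR fit, where 6 had an unadjusted p below 0.05, beside 2026 of all 12189 genes. In Th17 KO, Elovl5 was lower (-0.32, adjusted p = 0.00497), and the fatty acid activating enzymes Acsl4 (0.26, adjusted p = 0.0124) and Acsl1 (0.62, adjusted p = 0.0323) were higher. Elovl5 stood at 111, 112 and 106 CPM in Th17 WT and 92.9, 83.0 and 86.2 in Th17 KO, with no overlap.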

How the data were processed

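Poly-A RNA of 12 sorted samples was made into full-length cDNA, tagmented and sequenced as read pairs of 75 bases, per the labels' protocols. The submitters' processing notes name GRCm38 (mm10), TopHat2, Bowtie2 and featureCounts, without versions. How strand and reads matching several places were treated is not given in the sources used here. Deposited values are raw read counts per Ensembl gene ID. Labels gave no replicate numbers, so samples are numbered in order of deposit.

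Names, positions and exon lengths came from GENCODE M21 (96.2% of IDs named). Counts were filtered with filterByExpr, scaled by TMM and tested with edgeR 4.0.16 (quasi-likelihood, robust) on all 12 samples, with Benjamini-Hochberg adjustment over 12189 genes in each of 5 comparisons and a threshold of 0.05. CPM are TMM-scaled. SE is the absolute log2 fold change over the root of F. With 3 against 3, an exact permutation test cannot go below 0.1. Simulated counts with known changes were used to test the code. Read-length stretches are 75-base windows of GENCODE transcripts found also in another gene's transcripts. Promoters came from RefSeq.

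Values per library are given for up to 8 genes of smallest p past the threshold per comparison (the 1 of smallest p where none passed) and for Srebf1, Srebf2 and Insig1; other lists are named by up to 4 genes of smallest p; other genes with values were chosen after seeing them. Not every gene so chosen is reported here. The genes and lists were chosen with earlier results of these data known. Tried besides were DESeq2 1.42.0, RLE size factors, no filter, only the groups compared, a block by library code and each sample left out; fits without the 3 shallow libraries and without their dominant gene ID were added after seeing the data. R 4.3.3 and Python 3.11.15 were used.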

Additional observations from a re-analysis of the deposited data

How the results depend on the processing

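No gene value past the threshold changed sign under any alternative run, and such values stayed past it in 765 of 834 refits. The number of the 34 genes past the threshold in Th1 KO against WT was 1, and it was 3 with no filter on low counts, 4 with only the groups compared and 3 without the 3 shallow libraries; leaving out 1 library gave 1 to 2. In Th17 KO against WT it was 5, and it was 3 with only the groups compared and 2 without the shallow libraries; leaving out 1 library gave 2 to 4. Between cultures, leaving out 1 library gave 16 to 19 in WT, where the count was 19, and 19 to 22 in KO, where it was 21. In WT the calls of Insig2 (adjusted p = 0.0755), Pmvk (0.154) and Fdft1 (0.0908) were lost with DESeq2, and that of Insig2 without the shallow libraries (0.197); in KO that of Scap was lost with DESeq2 (0.0706) and that of Insig1 with no filter (0.0979). The interaction gave 0, but 1 with no filter and 0 to 1 with a library left out (1 without Th17 KO 1). With a replicate block by library code the counts were 6 in Th1, 8 in Th17 and 2 for the interaction (Srebf2, adjusted p = 0.0303, and Lss, 0.00427). The codes do not establish a pairing: over 6 same-numbered pairs the correlation of deviations ran from -0.062 to 0.226, was over 0.1 in 3, and in 4 both samples correlated best with their own number.

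Over all genes, 562 differed between genotypes in Th1, but 317 with DESeq2, 922 with only the groups compared, 1315 with the block and 260 to 343 without Th1 WT 2, Th1 KO 1 or Th1 KO 2. In Th17 711 differed, but 356 with only the groups compared, 1117 with the block, 319 without the shallow libraries and 411 to 458 without Th17 WT 2, Th17 KO 1 or Th17 KO 3. The interaction gave 72, but 207 with no filter, 329 with the block and 38 without Th17 KO 3. The causes were not tested. Of the 6 Th17 libraries 3 are shallow, which limits the depth behind every Th17 value.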
